A study of Mus musculus with 27 samples.

Results

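The AP-1 and immediate early transcription factors Fos, Fosb, Fosl1, Fosl2, Jun, Junb, Jund, Atf3 and Egr1 were followed in mouse left kidneys over 9 ischemia times. These 9 genes, chosen by symbol, were 9 of the 19392 genes in the deposited expression table, and all 9 were above 0 FPKM in enough kidneys to be tested. FPKM is a fragment level scaled by transcript length and library size, so levels of different genes are compared per length. The left renal pedicle of C57BL/6 mice was clamped for 16, 18, 20, 22, 24, 26, 28 or 30 min, or for 0 min in the sham group. The paper lists 0 min among the times of a model with removal of the right kidney, but does not describe the sham operation separately. Left kidneys were harvested 24 h later, from 3 mice at each time and 27 in all, and RNA of the bulk tissue was sequenced. In bulk tissue, a change in the cells that express a gene and a change in RNA per cell cannot be told apart. A gene was called when its log2 fold change, on the log2(FPKM + 1) scale, was beyond 1 in size and its limma adjusted p was below 0.05 over all 18188 genes tested. The added 1 FPKM understates the change of genes with low levels, which applies most to Fosb and Fosl1.

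AP-1 is a dimer of basic leucine zipper proteins that binds a short palindromic DNA site. Jun proteins pair with each other or with Fos proteins, whereas Fos proteins need a Jun partner. Many of these genes belong to the immediate early class, which cells transcribe within minutes of growth factor, stress or injury signals passed on by MAP kinases, and without new protein synthesis. In the kidney, this class is known to respond to ischemia and reperfusion in tubular cells, and Fos and Egr1 are classical members of it. The first wave of such a response usually passes within hours.

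The sequences just upstream of the genes show how unlike their promoters are. RefSeq promoters on GRCm38.p6 were matched for 7 of the 9 genes. Fosl1 was not in that table, and Egr1 was not included. The 250 bases before the RefSeq start site are given 5′ to 3′ on the coding strand for 1 gene of each subfamily, Fos at chr12:85473640-85473889 (plus strand), Jun at chr4:95052223-95052472 (minus strand) and Atf3 at chr1:191183334-191183583 (minus strand). In the RefSeq genes of the same build, the other gene models lie at chr7:19302696-19310118 (Fosb), chr5:32136472-32157840 (Fosl2), chr8:84976909-84978748 (Junb) and chr8:70697739-70700616 (Jund). Capitals in the sequences mark TGACG on either strand, TGACATCA and TATAAA.
Fos: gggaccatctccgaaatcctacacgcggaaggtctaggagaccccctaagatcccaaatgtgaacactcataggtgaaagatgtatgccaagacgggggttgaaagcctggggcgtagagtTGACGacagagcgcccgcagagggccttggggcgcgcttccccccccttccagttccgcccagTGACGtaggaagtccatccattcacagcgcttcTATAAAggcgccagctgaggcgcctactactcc
Jun: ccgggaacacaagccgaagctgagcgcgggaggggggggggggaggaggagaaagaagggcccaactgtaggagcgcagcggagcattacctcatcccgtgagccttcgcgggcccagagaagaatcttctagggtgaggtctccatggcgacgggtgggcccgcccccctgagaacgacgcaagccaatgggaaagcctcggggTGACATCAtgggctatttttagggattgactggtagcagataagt
Atf3: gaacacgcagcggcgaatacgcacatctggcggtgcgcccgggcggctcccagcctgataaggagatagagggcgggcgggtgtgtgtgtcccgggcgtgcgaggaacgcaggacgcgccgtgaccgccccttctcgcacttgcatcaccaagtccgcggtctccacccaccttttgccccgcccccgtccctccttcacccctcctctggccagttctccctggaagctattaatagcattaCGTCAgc
The core TGACG of the cyclic AMP response element, searched on both strands, was present in 4 of the 7 promoters, Fos, Fosb, Junb and Atf3, and in 17.8% of all 32851 RefSeq promoter windows of the same length. Counted back from the start site, Fos carried it at positions -129 and -66, and also a TATAAA box at -33, a motif found in 12.4% of windows. Jun carried the variant AP-1 site TGACATCA at -45, found in 2.93% of windows. The AP-1 site TGANTCA (6.75% of windows), the full cyclic AMP response element TGACGTCA (1.55%) and the CArG box bound by serum response factor (1.47%) had no match in any of the 7 windows. Bases further upstream were not searched, so these promoters may carry such sites outside the 250 bases. The EGR site GCGGGGGCG (2.57%) was found in Fosb and Fosl2. That site overlaps GGGCGG, which 32.7% of windows hold and which 5 of the 7 promoters (Fos, Fosb, Fosl2, Jun and Atf3) carried, while the CCAAT box (33.8%) was found in Jun and Junb. No motif searched was found in the Jund window, whose GC content was 47.6%, against 58.4% to 68.8% in the other 6. The Fosb window (chr7:19310046-19310295, minus strand) lies before another start site than that of the Fosb gene model given above, and overlaps that model. The TGACG and EGR matches of Fosb fall in this overlap. All matches of this search describe letters and were not tested against expression.

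All 9 genes were higher than sham after 30 min of ischemia, and they reached that level along different courses. Over the 9 group means, all 36 pairs of genes correlated positively, with r from 0.60 to 0.99. Differences between the courses were not tested. Egr1 and Junb were already called after the shortest ischemia, 16 min. Jun and Jund were also higher at that time, with limma adjusted p of 0.0059 and 0.0083, but under the fold threshold. Fosl1 was low from 16 to 26 min and rose steeply between 26 and 28 min. Jund, the most abundant of the 9, was called against sham only at 30 min. The number of the 9 genes called higher than sham was 2 at 16 min, when 1.28% of all tested genes were called higher, and 3 at 18 min (1.97%). The 20 and 22 min groups had 4 each (1.55% and 2.09%), the 24 min group had 3 (1.97%) and the 26 min group had 6 (2.16%). After 28 min 7 genes were called (4.27%), and after 30 min all 9 were (5.14%). No member was called lower than sham at any of these times. The 8 comparisons share the same 3 sham kidneys and are not independent of each other. The 9 genes had a median log2 fold change over sham of 0.88 at 16 min, and of 0.55, 0.70, 1.04, 0.79 and 1.22 for the next 5 times in order, so it did not increase at every step. It was 1.81 and 2.32 after 28 and 30 min. The median of all tested genes lay between -0.01 and 0.00 at all 8 times, near 0 as quantile normalization between kidneys tends to hold it.

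**Figure D1:**
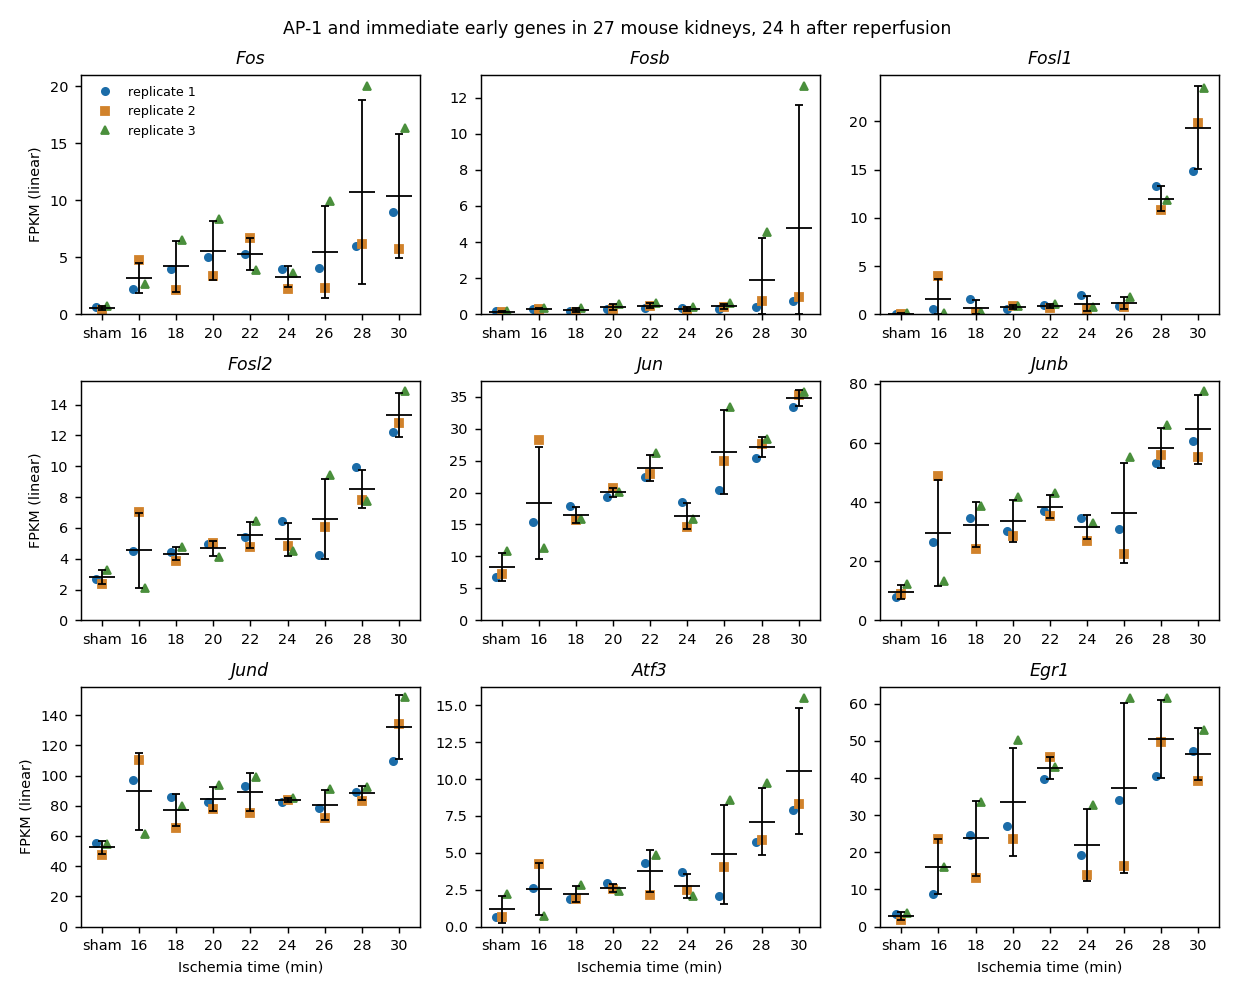
FPKM on a linear axis against ischemia time for each of the 9 genes, with 1 panel per gene and its own scale. Coloured symbols are single kidneys, horizontal bars are means of 3 kidneys and error bars are SD, drawn no lower than 0. Fosl1 stays at or below 3.95 FPKM in every kidney up to 26 min and at or above 10.83 FPKM from 28 min, while the high Fosb means at 28 and 30 min each come from 1 kidney.

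Fos, the founding partner of Jun in AP-1, was near the floor in sham kidneys, at 0.61, 0.38 and 0.73 FPKM. After 16 min it measured 2.22, 4.72 and 2.66 FPKM, and from 18 to 24 min the kidneys ranged from 2.11 to 8.40 FPKM. Every clamped kidney lay above every sham kidney. The values were 4.07, 2.33 and 9.97 FPKM at 26 min, 5.95, 6.17 and 20.05 FPKM at 28 min, and 8.99, 5.75 and 16.33 FPKM at 30 min. At each of these last 3 times, replicate 3 was the highest. The log2 fold change over sham was 1.27 ± 0.46 (SE) at 16 min with an adjusted p of 0.0593, which missed the threshold, and 2.65 ± 0.46 at 30 min (adjusted p = 6.4e-05). Between those times Fos passed both thresholds in every comparison with sham, but 3 of those calls depended on single kidneys. The call at 18 min was lost in 3 of 6 cases with 1 kidney left out (replicate 2 of sham, replicates 1 and 3 at 18 min, adjusted p 0.0513 to 0.0883). At 24 min it was lost in 5 of 6 cases (each sham kidney, replicates 1 and 3 at 24 min, adjusted p 0.0654 to 0.118), and at 26 min without replicate 3 of that time (adjusted p = 0.0574). Of the neighbours in the order of the mean Fos levels, only sham and 16 min were further apart than the larger of their SDs.

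Fosb, a close relative of Fos known for a long-lived splice form in neurons, was the scarcest of the 9 genes on average at every time from 16 min on. The sham kidneys measured 0.16, 0.12 and 0.16 FPKM, and the 18 kidneys from 16 to 26 min ranged from 0.14 to 0.60 FPKM. At 28 min the values were 0.39, 0.72 and 4.55 FPKM, and at 30 min they were 0.74, 0.98 and 12.64 FPKM. The means of 1.89 ± 2.31 (SD, n = 3) and 4.79 ± 6.80 FPKM at these times therefore rest on replicate 3. At 30 min its log2 fold change over sham was 1.63 ± 0.52 (SE, adjusted p = 0.0116). Without replicate 3 of the 30 min group it was 0.69, with an adjusted p of 0.101. Fosb was the only 1 of the 9 genes for which the limma F test over all 9 times missed the threshold (adjusted p = 0.115), in a test that 55.1% of all genes passed. No neighbouring pair in the order of its mean levels differed by more than the larger SD.

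Fosl1, which encodes Fra-1, a Fos protein without the transactivation domain of Fos, showed the largest step. It was listed at 0, 0.04 and 0.09 FPKM in the sham kidneys. At 16 min the kidneys measured 0.59, 3.95 and 0.16 FPKM, and at 26 min they measured 0.89, 0.77 and 1.84 FPKM, with all kidneys in between from 0.21 to 1.97 FPKM. The means of the 5 groups from 18 to 26 min increased in the order of time, from 0.68 to 1.17 FPKM, with SDs within the groups of 0.19 to 0.76 FPKM, and the 16 min mean of 1.57 FPKM lay above them through replicate 2. At 28 min the kidneys measured 13.33, 10.83 and 11.81 FPKM, and at 30 min 14.82, 19.79 and 23.42 FPKM, so that no kidney at 28 or 30 min overlapped with any at a shorter time. For 28 over 26 min the log2 fold change was 2.58, with a 95% interval from 1.79 to 3.36, and over the alternatives and with each kidney left out it ranged from 2.45 to 3.31. The difference between 30 and 28 min was 0.66 on the log2 scale (95% interval -0.12 to 1.44, adjusted p = 0.277), although each 30 min kidney exceeded each 28 min kidney. The call against sham at 26 min (log2 fold change 1.01, adjusted p = 0.0472) was lost when any 1 of the 6 compared kidneys was left out, with adjusted p from 0.0557 to 0.183. The size of this difference depends on the added constant: with 0.1 in place of 1 FPKM it was 3.01 (adjusted p = 0.0030), and Fosl1 was then also called at 16, 20, 22 and 24 min. Fosl1 (chr19:5447698-5455938, plus strand) overlaps Ccdc85b on the opposite strand, an overlap read from GENCODE vM21. Strand use in counting is not given in the sources used here, so reads in the overlap cannot be told apart. Ccdc85b itself measured 5.98 ± 0.54 FPKM at 26 min and 9.66 ± 0.64 FPKM at 28 min (SD, n = 3), and its part in the Fosl1 values was not tested.

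Fosl2, which encodes Fra-2, was the main Fos family transcript of the sham kidneys, at 2.70, 2.38 and 3.28 FPKM. The 18 kidneys from 16 to 26 min ranged from 2.13 to 9.40 FPKM, and the lowest of them, replicate 3 at 16 min, lay below the lowest sham kidney. At 28 min the values were 9.92, 7.83 and 7.74 FPKM. At 30 min they were 12.20, 12.78 and 14.91 FPKM, above every other kidney of the series. Fosl2 passed both thresholds against sham at 28 min (log2 fold change 1.19 ± 0.24 SE, adjusted p = 3.7e-04) and at 30 min (1.80 ± 0.24, adjusted p = 2.8e-06). At 22 and 26 min its adjusted p was below 0.05 (0.0434 and 0.0143) with log2 fold changes of 0.67 and 0.81, under the fold threshold.

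Jun, the namesake of the family and a target of the Jun N-terminal kinases, measured 6.79, 7.31 and 10.93 FPKM in the sham kidneys. At 16 min it measured 15.38, 28.17 and 11.36 FPKM, all above sham, the last by a small margin. At 18 and 20 min the kidneys ranged from 15.65 to 20.65 FPKM, at 22 min they measured 22.45, 22.84 and 26.11 FPKM, and at 24 min they were lower, at 18.53, 14.63 and 15.78 FPKM. They reached 20.46, 24.97 and 33.42 FPKM at 26 min, 25.44, 27.61 and 28.36 FPKM at 28 min, and 33.38, 35.25 and 35.68 FPKM at 30 min. The 28 min kidneys thus lay inside the range of the 26 min kidneys. The log2 fold change over sham was 0.88 ± 0.21 (SE) at 16 min, with an adjusted p of 0.0059 and a size under the fold threshold, which it passed without replicate 3 of that time (1.14) and without replicate 3 of sham (1.06). It was 1.88 ± 0.21 at 30 min (adjusted p = 2.3e-07). The call at 20 min (1.10) fell to 0.99, under the fold threshold, without replicate 1 of sham. The 28 min and 26 min kidneys differed by 0.04 on the log2 scale, with a 95% interval from -0.39 to 0.47.

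Junb, a Jun protein often described as a brake on Jun, measured 7.89, 8.97 and 12.44 FPKM in the sham kidneys. At 16 min it measured 26.44, 48.83 and 13.30 FPKM, and the log2 fold change of 1.25 ± 0.33 (SE) passed the test (adjusted p = 0.0115). That call rested on replicate 2, without which the fold change was 0.82 and the adjusted p 0.0976. From 18 to 26 min the kidneys ranged from 22.56 to 55.17 FPKM, and all 15 lay above the sham range. At 28 min the values were 53.27, 55.98 and 66.09 FPKM, and at 30 min they were 60.81, 55.44 and 77.59 FPKM. The difference of 0.76 on the log2 scale between 28 and 26 min had an adjusted p of 0.117. It became 1.11 with an adjusted p of 0.0254 without replicate 3 of the 26 min group, the 1 kidney of that group that reached the 28 min range. Over sham, the log2 fold change of Junb at 30 min was 2.56 ± 0.33 (adjusted p = 1.7e-06). Junb overlaps Prdx2 on the opposite strand, and Prdx2 group means stayed between 115.6 and 135.5 FPKM at all 9 times.

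Jund, which is known to be expressed at rest in many tissues, measured 55.02, 47.69 and 54.54 FPKM in the sham kidneys, more than any other of the 9 genes. At 16 min it measured 97.06, 110.44 and 61.16 FPKM, and from 18 to 28 min the 18 kidneys ranged from 65.16 to 99.24 FPKM with group means between 77.0 and 89.2 FPKM. All clamped kidneys lay above the sham range, and the group means from 16 to 28 min stood in no order of time. At 30 min the values were 109.73, 134.39 and 152.24 FPKM. Its log2 fold change over sham was between 0.45 and 0.68 at every time from 16 to 28 min, with adjusted p from 0.0024 to 0.0492 and a size under the fold threshold, and 1.33 ± 0.17 (SE) at 30 min (adjusted p = 1.3e-06). Jund was the only member whose difference between 30 and 28 min had an adjusted p below 0.05 (0.66 on the log2 scale, 95% interval 0.31 to 1.01, adjusted p = 0.0136), again under the fold threshold. With each kidney left out in turn that adjusted p reached at most 0.102, and over the alternative settings at most 0.111.

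Atf3, a stress-induced zipper protein of the ATF branch that pairs with Jun proteins, measured 0.65, 0.63 and 2.19 FPKM in the sham kidneys. At 16 min it measured 2.62, 4.27 and 0.72 FPKM, and from 18 to 26 min the 15 kidneys ranged from 1.84 to 8.60 FPKM. Because replicate 3 of sham was high, the clamped and sham ranges overlapped in the 16, 18, 22, 24 and 26 min groups. At 28 min the values were 5.73, 5.86 and 9.75 FPKM, and at 30 min they were 7.88, 8.30 and 15.50 FPKM. The log2 fold change over sham was 0.53 ± 0.40 (SE) at 16 min (adjusted p = 0.412), 1.81 ± 0.40 at 28 min (adjusted p = 8.9e-04) and 2.32 ± 0.40 at 30 min (adjusted p = 6.2e-05). The call at 26 min (1.22, adjusted p = 0.0269) was lost without 1 of 4 kidneys, replicate 1 or 2 of sham or replicate 2 or 3 of that time, with the smallest value, 0.78 and an adjusted p of 0.175, without replicate 3 of the 26 min group.

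Egr1, a zinc finger factor outside AP-1 that is induced by the same signals, measured 3.31, 1.71 and 3.54 FPKM in the sham kidneys. At 16 min it measured 8.64, 23.52 and 16.14 FPKM, and the log2 fold change of 1.97 ± 0.43 (SE, adjusted p = 0.0034) was the largest of the 9 genes at that time on this scale. With 0.1 FPKM added in place of 1, Fosl1 (2.61) lay above Egr1 (2.25). Egr1 passed the thresholds at all 8 ischemia times and with each kidney left out. The kidneys measured 24.56, 13.10 and 33.41 FPKM at 18 min, 26.93, 23.46 and 50.28 FPKM at 20 min, and 39.57, 45.61 and 42.91 FPKM at 22 min. At 24 min they were lower, at 19.22, 13.84 and 32.74 FPKM, without overlap with 22 min, and that difference was not called (unadjusted p = 0.0274). The values were 33.93, 16.35 and 61.52 FPKM at 26 min, 40.42, 49.73 and 61.42 FPKM at 28 min, and 47.18, 39.15 and 52.94 FPKM at 30 min. These 3 groups overlapped. The differences were 0.59 on the log2 scale for 28 over 26 min (95% interval -0.30 to 1.49) and -0.05 for 30 over 28 min (95% interval -0.95 to 0.84).

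The counts of genes whose 3 kidneys all exceeded the 3 sham kidneys use no fold threshold. They were 7 of the 9 genes after 16 min, when 20.6% of all tested genes did so, and 7 after 18 min (29%). The 20 min group had 9 (26.4%), and 8 were found in each of the 22, 24 and 26 min groups (29.9%, 29.4% and 29.1%). All 9 did so after 28 min (35.5%) and after 30 min (33.3%). The 2 genes that overlapped with sham at 16 min were Fosl2 and Atf3, in both cases through replicate 3.

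Comparisons between neighbouring times ask where along the course the genes moved. Between 16 and 26 min, none of the 5 steps of 2 min gave a call among the 9 genes or among all genes by limma, where the share called was 0% at each step. At an unadjusted p below 0.05, 0 of the 9 genes passed for 18 over 16, 20 over 18 and 22 over 20 min, 2 passed for 24 over 22 min and 1 passed for 26 over 24 min, with 447 to 1100 of all genes passing. Jun (-0.53) and Egr1 (-1.02) were the 2 at 24 over 22 min, and the 1 at 26 over 24 min was Jun (0.63). The median log2 fold change of the 9 genes was -0.30 for 24 over 22 min, where all 3 kidneys were lower for 3 of them, Jun, Junb and Egr1, against 3% of all genes. A slope fitted over the 18 kidneys from 16 to 26 min was called for none of the 9 genes (0.011% of all genes). The smallest p was that of Fosl2, which gained 0.0465 on the log2 scale per min (unadjusted p = 0.0391, adjusted p = 0.544). Thus no rise with each added minute was detectable for these genes within that range.

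Between 26 and 28 min, 1 of the 9 genes, Fosl1, was called higher, and 0.44% of all genes were. The median log2 fold change was 0.59 for the 9 genes and 0.00 for all genes, where the normalization tends to hold it near 0. Between 28 and 30 min none was called, against 0.401% of all genes called higher, and 2 of the 9, Jund and Fosl2, had an unadjusted p below 0.05, as did 26.8% of all genes. At this last step all 30 min kidneys exceeded all 28 min kidneys for 4 of the 9 genes, Fosl1, Fosl2, Jun and Jund, against 11.9% of all genes. Fosl1 was also the only 1 of the 9 whose 6 kidneys at 28 and 30 min all exceeded the 18 kidneys from 16 to 26 min, against 7.54% of all genes. The mean of the 28 and 30 min groups was then set against the mean of the 6 groups from 16 to 26 min, that is 6 kidneys against 18. All 9 genes were higher with an adjusted p below 0.05, as were 29.6% of all genes. The 4 genes Fos, Fosb, Fosl1 and Atf3 also passed the fold threshold, against 1.27% of all genes. Their log2 fold changes were 3.09 ± 0.22 (SE) for Fosl1, 1.29 ± 0.23 for Atf3, 1.13 ± 0.30 for Fosb and 1.01 ± 0.27 for Fos. The other 5 lay between 0.42 (Jund) and 0.95 (Fosl2). The Fos value lay at the fold threshold, and 10 of the 24 kidneys ended its call when left out, with values from 0.75 to just under the threshold. They were replicates 1 and 3 of the 16 min group, replicate 2 of the 18, the 20 and the 24 min group, replicate 3 of the 22, the 28 and the 30 min group, and replicates 1 and 2 of the 26 min group. Fosb fell under the threshold without replicate 3 of the 28 min group (0.82) or of the 30 min group (0.66), while Fosl1 and Atf3 were called with each kidney left out.

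**Figure D2:**
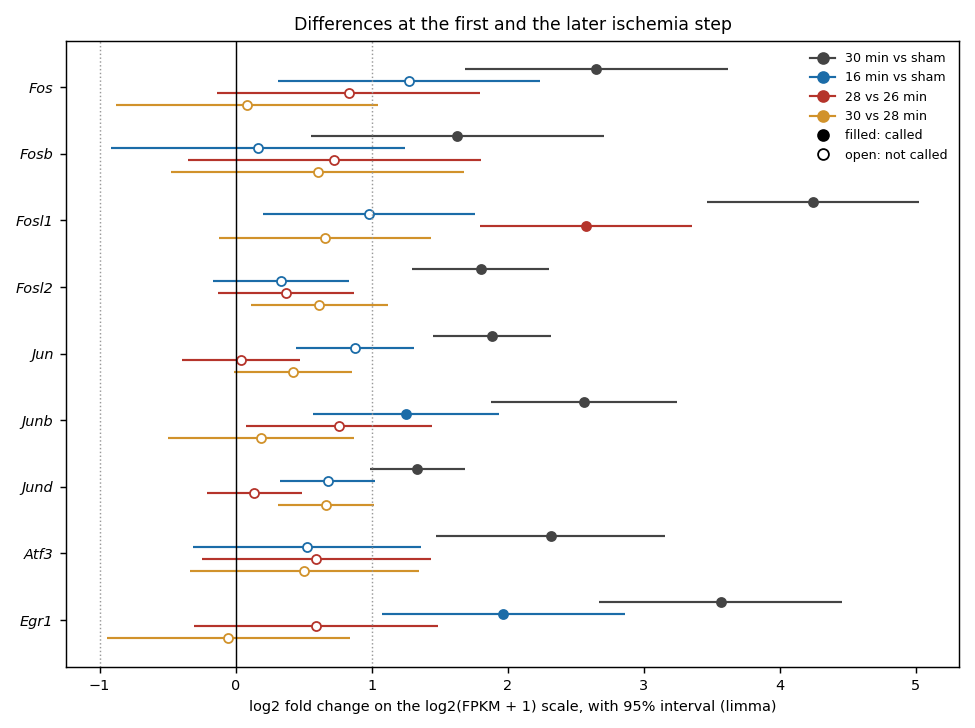
log2 fold change of each gene on the log2(FPKM + 1) scale with its 95% interval from limma, for 30 min over sham (grey), 16 min over sham (blue), 28 over 26 min (red) and 30 over 28 min (yellow). Filled points passed both thresholds and dotted lines mark a log2 fold change of 1 in either direction. Fosl1 is the only filled red point (2.58), and Egr1 (1.97) and Junb (1.25) are the only filled blue points.

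Since Fos and Jun proteins work as pairs, the makeup of each family was followed as a share of its summed FPKM, which is a description of transcripts and not of protein. In sham kidneys, the 4 Fos family transcripts summed to 3.55 ± 0.67 FPKM (SD, n = 3) and Fosl2 held 78.8% ± 2.4 of it. From 16 to 26 min the sum was between 9.45 and 13.6 FPKM on average, and the share was split mainly between Fosl2, at 42.7% to 53.6%, and Fos, at 33.1% to 47.4%. At 28 min the sum was 33.1 ± 9.8 FPKM and at 30 min it was 47.8 ± 17.0 FPKM. Fosl1 was then the largest part on average, at 38.1% ± 9.9 and 41.8% ± 7.9, compared with 1.16% ± 1.07 in sham and 8.60% ± 0.66 at 26 min. In replicate 3 at 28 min Fos held more, 45.4%, and Fosl1 26.7%, whereas Fosl1 was the largest part in the other 5 kidneys. The Fosl1 share ranged from 26.7% to 50.4% over the 6 kidneys at 28 and 30 min and reached at most 24.7% in any earlier kidney, replicate 2 at 16 min.

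The Jun family was less rearranged. Its sum was 70.5 ± 7.0 FPKM in sham, 143 ± 32 FPKM at 26 min, 174 ± 11 FPKM at 28 min and 232 ± 31 FPKM at 30 min. Jund held 74.5% ± 4.5 of it in sham, 57.1% ± 5.5 at 26 min, 50.8% ± 2.0 at 28 min and 57.0% ± 3.0 at 30 min, and remained the most abundant Jun transcript at every time. Junb held 13.8% ± 2.3 in sham and 33.5% ± 1.9 at 28 min, its highest share. The Fos family sum was 4.56% to 5.47% of the Jun family sum in the sham kidneys, between 6.73% and 9.17% on average from 16 to 26 min, 18.9% ± 4.3 at 28 min and 20.3% ± 4.4 at 30 min. The 6 kidneys at 28 and 30 min lay at or above 15.3%, and no earlier kidney exceeded 12.1%.

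**Figure D3:**
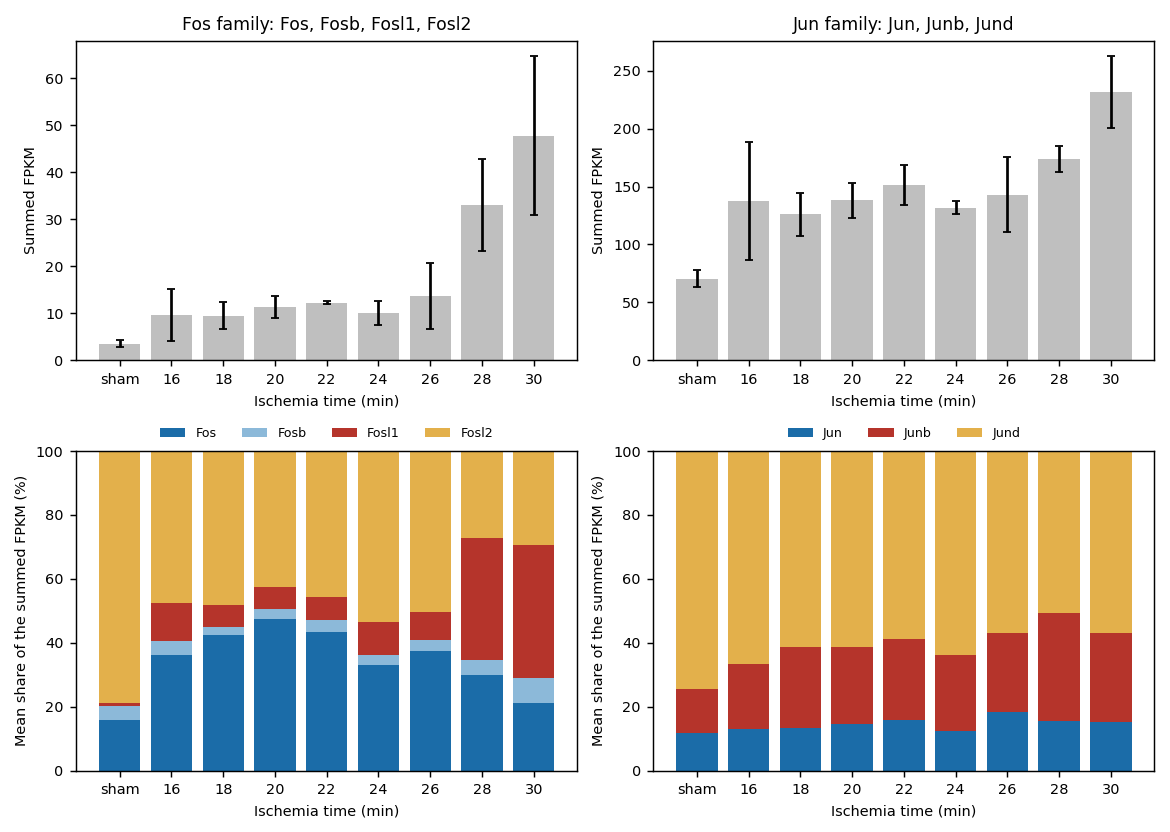
Summed FPKM of the Fos family (left) and the Jun family (right) against ischemia time, as means with SD of 3 kidneys in the upper row, and the mean share of that sum held by each gene, in %, in the lower row. Fosl2 holds 78.8% of the Fos family in sham, and Fosl1 holds 38.1% at 28 min and 41.8% at 30 min, while Jund holds at least 50.8% of the Jun family on average at every time.

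Kidneys of 1 ischemia time differed from each other in the same direction for most of the 9 genes. Replicate 3 at 26 min and replicate 3 at 30 min were the highest of their group for all 9 genes, and replicate 2 at 18 min was the lowest for all 9. Replicate 3 of sham was the highest for 8 genes, replicate 2 at 16 min for 8 and replicate 3 at 28 min for 7. Replicate 3 also led for 6 genes in each of the 18 and 20 min groups and for 7 in the 22 min group. In the 16 and 24 min groups it led for only 1 and 3 genes. Over all 27 kidneys, the deviations from the group means correlated positively for all 36 pairs of genes, with a median r of 0.61 (range 0.08 to 0.85). This r is a description, since all 9 genes share the same 27 libraries and the same normalization.

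**Figure D4:**
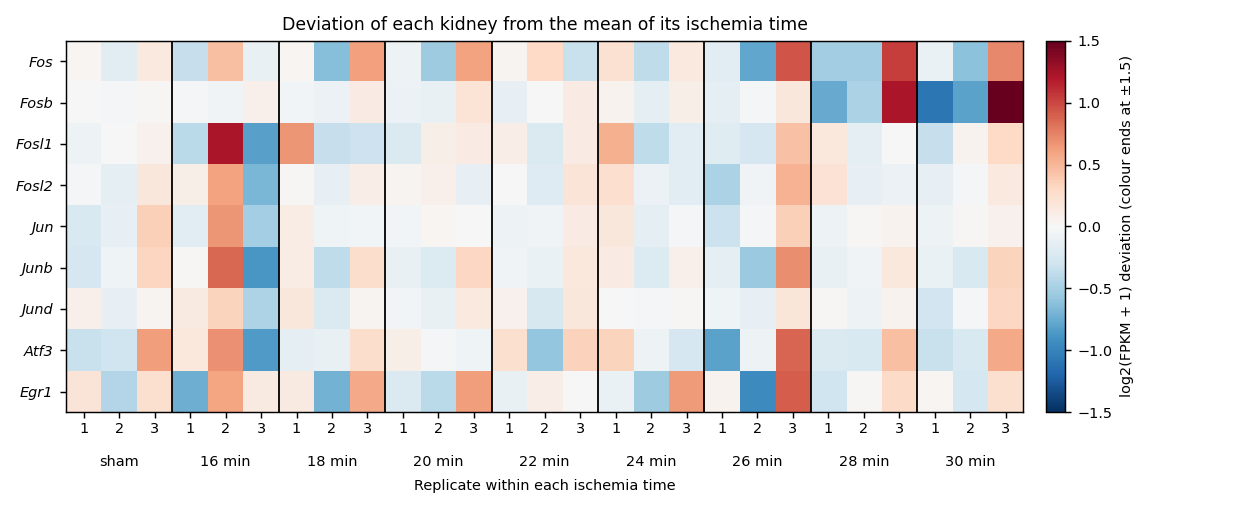
Deviation of each kidney (columns, replicates 1 to 3 within each ischemia time) from the mean of its group for each gene (rows), on the quantile-normalized log2(FPKM + 1) scale, with red above and blue below the mean. Colours end at 1.5 in either direction. The columns of replicate 2 at 16 min and of replicate 3 at 26 and at 30 min are red for nearly all 9 genes.

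Marker genes of the kidney's cell types also changed over the ischemia times, each list along its own course. The 13 nephron markers, led by the proximal tubule transporter Slc34a1, summed to 4549 to 5110 FPKM in sham, 3075 to 4375 FPKM at 26 min, 1753 to 2111 FPKM at 28 min and 1429 to 3537 FPKM at 30 min, and all 13 were above 0 in every kidney. The 13 leukocyte markers summed to 35.9 to 48.0 FPKM in sham, 46.0 to 105 FPKM at 16 min and 55.8 to 87.3 FPKM at 26 min, and to 72.5 to 85.0 FPKM and 75.6 to 108 FPKM after 28 and 30 min. At 30 min against sham, 5 of the 13 were called higher and 2 lower, with a median log2 fold change of -0.13. In absolute FPKM, the macrophage genes Cd68 (3.38 to 28.2 FPKM) and Lyz2 (12.3 to 31.7 FPKM) had the largest gains. On the log2 scale, the largest called gains were those of Cd68 (2.63), S100a9 (1.39), S100a8 (1.35) and Itgam (1.34). The S100a8 call was lost without replicate 1 of sham, and the Itgam call without replicate 3 at 30 min. Csf1r (15.8 to 6.69 FPKM) and Ly6c2 (1.71 to 0.26 FPKM) fell. Of the others, the T cell marker Cd3e averaged 0.01 FPKM and the natural killer cell marker Ncr1 was at 0 in all 3 kidneys at 30 min. The 8 endothelial and stromal markers summed to 92.8 to 110 FPKM in sham, 142 to 156 FPKM at 16 min, 145 to 196 FPKM at 26 min, 135 to 177 FPKM at 28 min and 187 to 365 FPKM at 30 min. Replicate 3 at 30 min stood apart with the highest sum of all 3 lists in its group, and replicate 3 at 16 min had a leukocyte sum of 46.0 FPKM, inside the sham range, and nephron markers at 5423 FPKM. The part of these cell type markers in the levels of the 9 genes was not tested.

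The genes around AP-1 were read from lists by role. Of 12 other zipper partners, which can pair with Fos, Jun or each other, 0 were called higher and 1 lower at 16 min against sham (background 0.979% lower), none was called at the 28 or 30 min step, and 1 rose and 2 fell at 30 min against sham (background 5.14% higher and 5.59% lower). The riser was Maff, a small Maf protein without a transactivation domain, at 15.2 against 1.63 FPKM (log2 fold change 2.48 ± 0.29 SE, adjusted p = 5.5e-07). Batf2 (-1.26) and Maf (-1.13) fell. Batf2 was at -0.92 without replicate 2 of sham, under the fold threshold. The median of the list was 0.18 at 30 min.

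Of 20 other immediate early genes, 1, Ccn1, was called higher at 16 min (background 1.28%) and 14 at 30 min (background 5.14%), with a median log2 fold change of 1.55 at 30 min and none called lower. The largest at 30 min were the matricellular genes Ccn1 (3.37 ± 0.39 SE) and Ccn2 (2.82 ± 0.28), the growth regulator Myc (2.39 ± 0.33) and the nuclear receptor Nr4a1 (2.31 ± 0.45). Between 26 and 28 min only Myc was called in this list, at 29.6 against 12.1 FPKM (log2 fold change 1.33 ± 0.33, adjusted p = 0.0071), a call lost without replicate 1 of the 26 min group (1.05, adjusted p = 0.0504). At the 30 over 28 min step only Ccn2 was called, at 115 against 50.4 FPKM (adjusted p = 0.0096), and the call was lost without replicate 3 of the 30 min group (log2 fold change 0.83).

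Upstream of these genes are MAP kinases and the serum response factor with its partners. Of 22 such genes, none was called at 16 min against sham or at the 28 and 30 min steps, and at 30 min against sham 2 rose, Mapk11 (1.57) and Mapk13 (1.09), and 1 fell, Map2k6 (-1.23). These counts are near the shares of all genes called (5.14% higher and 5.59% lower). Of 14 phosphatases and inhibitors that damp MAP kinase signals, 0 were called at 16 min (background 1.28% higher) and 5 were higher at 30 min (background 5.14%), led by Dusp5 (2.76 ± 0.22 SE), Dusp8 (1.78 ± 0.30), Dusp1 (1.45 ± 0.29) and Dusp10 (1.34 ± 0.19). Dusp5, a nuclear phosphatase of ERK, was the only 1 of them called between 26 and 28 min, at 9.60 against 3.04 FPKM (log2 fold change 1.43 ± 0.22, adjusted p = 1.9e-04). Dusp1 was the only 1 called between 28 and 30 min (1.30, adjusted p = 0.0073), and was not called there without replicate 3 of the 30 min group (1.06, adjusted p = 0.0582).

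Of 24 genes commonly described as AP-1 targets, 6 were higher at 16 min (background 1.28%), 2 at 28 over 26 min (0.44%), 1 at 30 over 28 min (0.401%) and 13 at 30 min over sham (5.14%), with none lower in these 4 comparisons. At 30 min the largest were Spp1, encoding osteopontin (4.21 ± 0.50 SE), the protease inhibitor Timp1 (3.93 ± 0.57), the urokinase receptor Plaur (3.45 ± 0.43) and the heme oxygenase Hmox1 (3.07 ± 0.29). Hmox1 (297 against 80.8 FPKM, adjusted p = 1.5e-04) and Plaur (46.4 against 16.5 FPKM, adjusted p = 0.0188) were those called between 26 and 28 min. The list held 2 calls there, which fell to 1 without replicate 1 or 2 of the 26 min group or replicate 3 of the 28 min group. The count of 6 at 16 min fell to 3 without replicate 1 of sham or of the 16 min group and to 1 without replicate 2 of the 16 min group. Several of these genes are also controlled by other factors, and no list was tested as a set.

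The genes whose 9 group means of log2(FPKM + 1) were most like those of each member, among 12930 genes, were found by Pearson's r as a description. The closest to Fosl1 were Rnf4 (r = 0.997), Eif2s2 and Brms1, and the closest to Fosb was Ahnak (0.996). For 2 of the 9 genes, another member was among the 3 nearest: Junb was second for Fos (0.987), and Fosl2 was first for Atf3 (0.990). The nearest to Egr1 were Cuedc2 (0.984) and Zfp36 (0.977), itself an immediate early gene, and Trib1 (0.990), another of that class, was second for Jun after Plcb3 (0.991). Nearest to Fosl2 was Prkx (0.994), to Junb Fntb (0.996), to Jund Fam102a (0.986) and to Fos Tbcd (0.988). With 9 points that share a low sham level and high late levels, many genes reach such values.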

How the data were processed

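RNA was sequenced from 27 left kidneys, 1 per mouse, with 3 mice at each of 9 ischemia times. Per the submitters' processing notes, Bowtie2 and RSEM were used on GRCm38.p6. Each deposited value is an FPKM that the authors computed for 1 gene symbol in 1 kidney, on a linear scale. The paper names the unit RPKM. Read counts were not used here and sequencing depth is unknown, so the precision of low levels cannot be given. Low values gave a relative depth of 0.938 to 1.071 among kidneys (95 genes). Only values close to each gene's lowest value entered, which holds this estimate near 1, so it cannot show that depth was equal.

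With limma 3.58.1 in R 4.3.3, log2(FPKM + 1) values were quantile-normalized between kidneys. Genes above 0 FPKM in at least 3 kidneys entered 1 fit over all 27 kidneys without blocks, and p-values were adjusted by the Benjamini-Hochberg method over all 18188 genes. The thresholds follow the study's methods. Each p-value sets a difference against the spread between mice within groups, estimated over all kidneys of the fit and moderated across genes. The fit was also run on simulated data, with changes planted only in genes of higher mean FPKM. That run does not cover genes as low as Fosb and Fosl1, and its outcome is not given here.

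All 9 members were named at every comparison. From each list of genes around AP-1, the counts and up to 4 called genes with the largest change were named. This was done at 30 min against sham and at 28 over 26 min. Genes named for 16 min and for 30 over 28 min were picked after their values were seen. For the marker lists, sums, some counts and a choice of single genes are given instead. The members and lists were chosen with earlier results of these data known. Alternatives changed the pseudocount, normalization, filter, variance model, replicate block, groups in the fit and kidneys.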

Additional observations from a re-analysis of the deposited data

How the results depend on the processing

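At 16 min against sham, the 2 calls among the 9 genes became 4 with a pseudocount of 0.1 FPKM, 5 with FPKM rescaled to TPM (the same sum in every kidney), and 0 when only the compared groups entered the fit, where the adjusted p was 0.103 for Egr1 and 0.212 for Junb. With 1 kidney left out in turn, the counts of members called against sham were 1 to 4 at 16 min, 2 to 3 at 18 min, 3 to 4 at 20 min, 4 to 5 at 22 min, 2 to 3 at 24 min, 3 to 6 at 26 min, 7 to 8 at 28 min and 8 to 9 at 30 min. They were 1 to 2 for 28 over 26 min, 0 for 30 over 28 min and for each earlier step, 2 to 5 for the later against the earlier times, 8 to 9 for the F test and 0 for the slope. The kidneys behind the extremes were replicate 2 (1 call) and replicate 3 (4 calls) at 16 min, replicate 3 at 26 min (3 calls, and 2 for 28 over 26 min) and replicate 3 at 28 min or at 30 min (2 calls for the later against the earlier times). Fosl1 for 28 over 26 min was called in every setting, with adjusted p from 5.6e-05 to 0.0082.

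Signs turned only among values that were not called. With 1 kidney left out, Fosb for 18 min over sham ranged from -0.014 to 0.092, Jun for 28 over 26 min from -0.12 to 0.21, and for 30 over 28 min Fos from -0.27 to 0.60, Fosb from -0.34 to 1.22 and Egr1 from -0.20 to 0.088. Slopes per min ranged from -0.0049 to 0.045 for Fos, -0.0019 to 0.048 for Junb and -0.015 to 0.0079 for Jund, whose slope was 0.00093 after rescaling to TPM.

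No pairing of kidneys beyond the replicate number is given. Deviations of same-numbered kidneys correlated with a median r of -0.009 over 108 pairs, against -0.010 over 216 pairs with other numbers. Replicate 3 was nevertheless the highest kidney for 6 or more of the 9 genes in every group except the 16 and 24 min groups. Whether the number carried an effect shared by these genes was not tested. As a paired analysis, the replicate block gave 3 calls at 16 min, adding Fos (adjusted p = 0.0249), and 5 at 26 min, losing Fosl1 (adjusted p = 0.0619), and it changed no other call of a member. The filter of 1 FPKM removed Fosb. Alternatives for the other lists were chosen after seeing the data, and the AP-1 target count at 16 min ranged from 0 to 10 and at 30 min from 12 to 20. The causes were not tested. With unknown depth, differences of Fosb and Fosl1 below about 1 FPKM are the least certain.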
